A study of Mus musculus with 8 samples.

Results

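The cell cycle and proliferation genes are 40 genes whose products drive, carry out or restrain cell division, from the D-type cyclins of early G1 to the kinases and kinetochore proteins of mitosis. They were chosen by name, each as the gene whose symbol in the expression tables equals a listed symbol, and all 40 were among the 21051 genes listed and the 12412 genes tested. By role, 11 regulate G1 and entry into S phase, 12 license replication origins or make DNA, and 17 act in G2 phase and mitosis.

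Tumor-associated macrophages (TAMs) were profiled by RNA-Seq of total RNA, to compare their gene expression with and without Colec11, which encodes the soluble C-type lectin collectin-11. Both groups were C57BL/6 mice that carried subcutaneous melanomas grown from injected melanoma cells, which in the study's main model were of the mouse line B16. TAM-WT came from 4 wild-type littermates and TAM-KO from 4 Colec11–/– mice, a germline knockout back-crossed onto C57BL/6, so that every cell of the host, not the macrophages alone, lacked the gene. Cells were taken on day 14 after injection by sorting on CD45 and F4/80, 1 library per mouse, and the study used young adult males unless it said otherwise.

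The genes listed held 16960268, 17122183, 16906782 and 17280267 reads in replicates 1 to 4 of TAM-WT. Replicates 2 to 4 of TAM-KO held 16225362, 16739028 and 16994308 reads. For TAM-KO replicate 1, the deposited table gave values for 12572 of the 16786 genes that the other 7 libraries had, with 10607640 reads on them, against 10061535 to 10440242 reads on the same genes elsewhere. Of the 40 members, 12 had a value for TAM-KO replicate 1 in its own table and 3 (Ccnd2, Ccnd3 and Cdk2) had one in a table of the whole series, which holds genes selected for differing between the groups. The other 25 had none, so TAM-KO is given by 3 libraries for them. The 28 members missing from that library's own table were tested on 7 libraries and the other 12 on all 8.

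Colec11 (NCBI gene 71693, chromosome 12) had 1, 4, 0 and 1 reads in replicates 1 to 4 of TAM-WT and 1 read in each TAM-KO library. Wild-type and knockout libraries could not be told apart by this gene, because it was at this floor in both groups, and the genotypes rest on the sample labels.

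Progress through the cell cycle is set by cyclin-dependent kinases, which cyclins activate and inhibitors such as p21 and p27 hold back. Phosphorylation of the retinoblastoma protein in G1 frees E2F factors to switch on genes for DNA replication, and a later wave of genes, controlled in part through the DREAM and MuvB complexes, builds the mitotic machinery. Tumor macrophages are replenished by blood monocytes and can also divide locally, while melanoma cells and activated T cells in the same tumor divide as well.

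All 40 members were expressed. Their mean level over the libraries ran from 5.83 FPKM (fragments per kilobase of exon, scaled to the mapped reads of the library) for Ccne2 to 324 FPKM for Pcna, with a median of 37.0 FPKM against 11.5 FPKM over all genes tested. Transcripts of S phase (Pcna, Mcm6), of G2 and mitosis (Ube2c, Birc5) and of cyclin-dependent kinase inhibitors (Cdkn1a) were all present in both groups. In a bulk library a lower value for these genes can come from fewer dividing cells, less RNA per cell or another mix of cell types. These cannot be told apart here.

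With edgeR's test the share of members called was near that of all genes tested. With edgeR's quasi-likelihood test and Benjamini-Hochberg adjustment over all genes at a threshold of 0.05, 1 member was higher in TAM-KO (Ccnd3) and 2 were lower (Pcna and Cenpa). These 3 of 40 are 7.50%, beside 9.81% of all genes tested, and by direction the background was 4.58% higher and 5.24% lower. None of the 3 reached a fold change of 2, so 0 members met both limits with edgeR, against 2.53% of all genes, and the count was also 0 in each of the 17 alternative settings. At an unadjusted p under 0.05 edgeR had 5 members, 2 higher and 3 lower, or 12.5% against 30.7% of all genes. DESeq2 called 4 members (10%, against 18.2% of all genes), adding Ccnd2 on the higher side, and limma on log2(FPKM + 1) called 1, Ccnd3 (2.5%, against 10.7%). Without TAM-WT replicate 2 edgeR called 5 members (12.5%, against 22.2% of all genes). Without TAM-KO replicate 2 it called 0 members, against 0.617% of all genes.

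The log2 fold changes of the members ran from -0.35 (Pcna) to 0.61 (Ccnd3), with 20 above 0 and 20 below. Within 0.25 of 0 on the log2 scale were 35 members, and the 5 outside were Ccnd3, Ccnd2, Cdk2, Pcna and Cenpa. The median log2 fold change was 0.0017, beside 0.0016 for all genes, and the medians were 0.0889 and 0.0888 when libraries were scaled to total reads in place of TMM (edgeR's trimmed-mean scaling between libraries), so that small signs depend on the scaling. By FPKM the groups did not overlap for 3 members, the same 3 that were called, which is 7.50% beside 18.9% of all genes. For 20 of 40 members every TAM-KO library lay inside the range of the TAM-WT libraries, 15 of the 25 with 3 knockout values (60%, beside 27.4% of all genes tested with 3) and 5 of the 15 with 4 (33.3%, beside 16.1%).

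**Figure D1:**
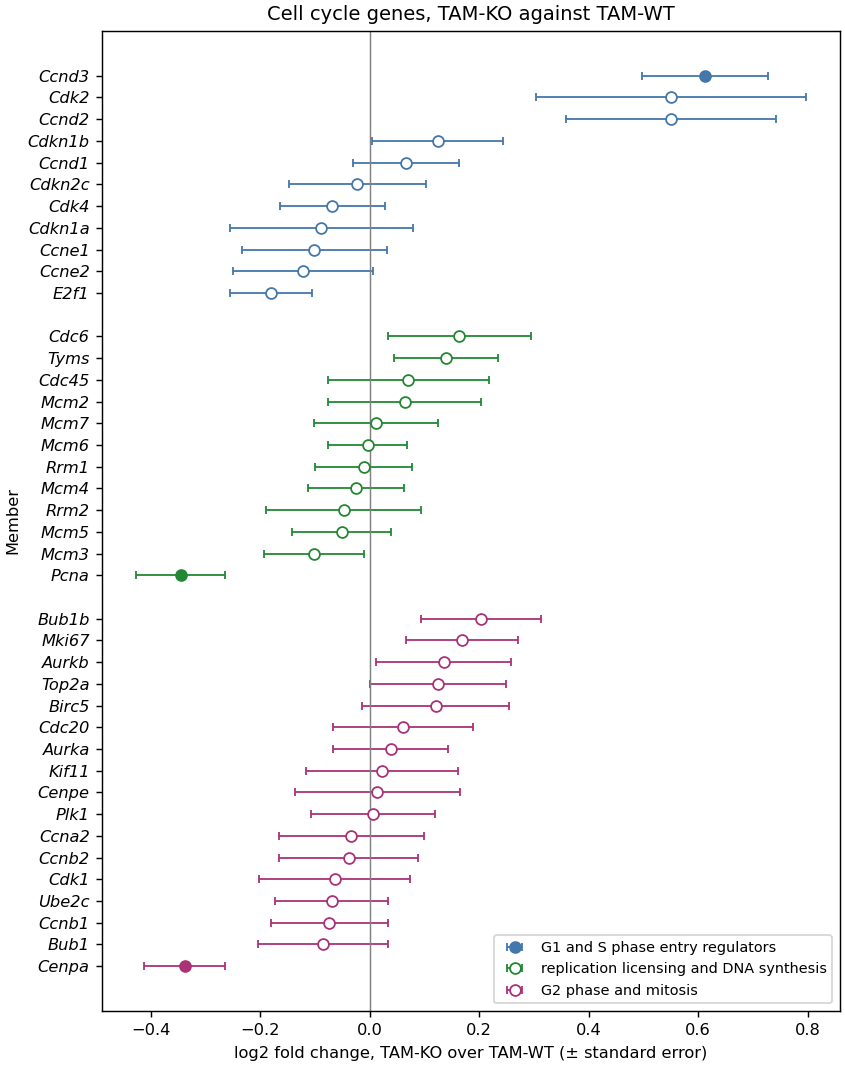
Log2 fold change of each of the 40 members, TAM-KO over TAM-WT, on the horizontal axis with its standard error as a bar, grouped by role and ordered by size within each group. Filled points passed edgeR's quasi-likelihood test after adjustment: Ccnd3 at 0.61, Pcna at -0.35 and Cenpa at -0.34.

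Among the regulators of G1 and S phase entry, 1 of 11 members passed the test, Ccnd3, and their median log2 fold change was -0.0225. Ccnd3 encodes cyclin D3, a D-type cyclin that activates Cdk4 and Cdk6 (NCBI gene 12445, chromosome 17). Ccnd3 stood at 61.0, 44.9, 41.0 and 47.8 FPKM in replicates 1 to 4 of TAM-WT and at 74.6, 86.7, 73.6 and 79.9 FPKM in replicates 1 to 4 of TAM-KO. Every knockout library was above every wild-type library, the nearest wild-type value being replicate 1. The means were 48.7 ± 8.68 FPKM in TAM-WT and 78.7 ± 5.98 FPKM in TAM-KO (SD, n = 4 each). On the 7 libraries of the test, without TAM-KO replicate 1, the log2 fold change was 0.61 (SE 0.11), with an adjusted p of 0.0240 by edgeR's quasi-likelihood test after Benjamini-Hochberg adjustment. Ccnd3 did not pass when replicate 3 or 4 of TAM-WT or replicate 2 or 3 of TAM-KO was left out. In these cases edgeR's quasi-likelihood test gave adjusted p of 0.0724, 0.0555, 0.0972 and 0.0719, at log2 fold changes of 0.56, 0.62, 0.59 and 0.67. A processed pseudogene, Ccnd3-ps, is annotated on chromosome 4 and is not listed in the tables, so the share of reads it could hold is not known. Ccnd3 also shares 361 bases with Bysl on the opposite strand, which stood at or below 12.45 FPKM in all 8 libraries.

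Ccnd2 and Cdk2 also lay outside the bulk of the members, did not pass the test, and were picked out after their values were seen, as was Ccnd1, the remaining D-type cyclin. Ccnd2, encoding cyclin D2, was at 30.9, 37.5, 19.0 and 23.3 FPKM in replicates 1 to 4 of TAM-WT and at 43.4, 48.1, 47.2 and 34.9 FPKM in replicates 1 to 4 of TAM-KO. The groups overlapped, through TAM-WT replicate 2 and TAM-KO replicate 4. Its log2 fold change of 0.55 (SE 0.19) had an adjusted p of 0.0980 with edgeR's quasi-likelihood test and passed with DESeq2 (adjusted p of 0.0409) and in edgeR's test without TAM-WT replicate 2 (log2 fold change 0.70, adjusted p of 0.0221). Over the 17 alternatives, run in edgeR, DESeq2 or limma, the adjusted p of Ccnd2 lay between 0.0221 and 0.262. Ccnd1, encoding cyclin D1, was at 64.4, 55.3, 47.1 and 50.9 FPKM in TAM-WT and at 56.5, 66.0 and 60.8 FPKM in replicates 2 to 4 of TAM-KO, and the ranges overlapped.

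Cdk2, the kinase partner of the E-type and A-type cyclins (NCBI gene 12566, chromosome 10), was at 81.0, 146, 71.3 and 62.7 FPKM in replicates 1 to 4 of TAM-WT. In replicates 1 to 4 of TAM-KO Cdk2 was at 137, 148, 154 and 120.2 FPKM. TAM-WT replicates 1, 3 and 4 lay below all knockout libraries and TAM-WT replicate 2 lay among them. The log2 fold change was 0.55 (SE 0.25), with an adjusted p of 0.174 by edgeR's quasi-likelihood test, and without TAM-WT replicate 2 it was 0.85 with an adjusted p of 0.00406 in the same test. No other alternative in edgeR, DESeq2 or limma called Cdk2, and its adjusted p reached 0.363 in them. Cdk2 (chr10:128697939-128705031, minus strand) shares 837 bases with the melanocyte gene Pmel (chr10:128704195-128720238, plus strand) in the GENCODE M21 annotation of GRCm38. Whether the counting used strand is not given in the sources used here, and without strand, reads in the shared stretch cannot be assigned to either gene. Pmel was at 761, 1322, 565 and 529.5 FPKM in replicates 1 to 4 of TAM-WT and at 1183, 1478, 1334 and 1092 FPKM in replicates 1 to 4 of TAM-KO. From lowest to highest, the 8 libraries came in the same order for Cdk2 and Pmel apart from TAM-KO replicates 2 and 3, which changed places, and the part of Pmel reads in the Cdk2 values was not tested.

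Cdk4, which pairs with the D-type cyclins, was the most abundant of the G1 and S phase regulators. It was at 211, 250.1, 182 and 183 FPKM in replicates 1 to 4 of TAM-WT and at 214, 220.0 and 197 FPKM in replicates 2 to 4 of TAM-KO. All 3 knockout libraries lay inside the wild-type range. The log2 fold change of -0.068 (SE 0.10) did not pass and was above 0 with total-read scaling, with limma on FPKM and without TAM-WT replicate 2. E2f1, a transcription factor of the E2F family, had the lowest log2 fold change of these regulators, -0.18 (SE 0.07, adjusted p of 0.144 by edgeR's quasi-likelihood test). By FPKM the 3 knockout libraries of E2f1 lay inside the wild-type range, while by TMM-scaled CPM (reads scaled to library size) they lay below it.

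The inhibitors showed no difference that passed. Cdkn1a, encoding p21, was at 166, 155.5, 204 and 211 FPKM in replicates 1 to 4 of TAM-WT and at 175, 171 and 214 FPKM in replicates 2 to 4 of TAM-KO. Cdkn1b, encoding p27, was at 28.6, 30.2, 25.3 and 25.3 FPKM in TAM-WT and at 32.9, 38.3 and 25.1 FPKM in those knockout libraries. Cdkn2c, encoding the Cdk4 and Cdk6 inhibitor p18, was at 25.3, 24.4, 16.9 and 18.4 FPKM in TAM-WT and at 24.3, 21.5 and 21.0 FPKM in those of TAM-KO. The groups overlapped for each of the 3 genes. TAM-WT replicates 3 and 4 were the high wild-type libraries for Cdkn1a and the low ones for Cdkn1b and Cdkn2c. Their log2 fold changes were -0.088 (SE 0.17) for Cdkn1a, 0.12 (SE 0.12) for Cdkn1b and -0.0225 (SE 0.12) for Cdkn2c. The signs turned with total-read scaling and with limma for Cdkn1a and Cdkn2c, without TAM-WT replicate 1 or 2 for Cdkn2c (0.0523 and 0.0391), and without TAM-KO replicate 3 for Cdkn1b (-0.015). The members Ccne1 and Ccne2, the E-type cyclins, had overlapping groups as well, with log2 fold changes of -0.10 and -0.12.

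Of the 12 genes of replication licensing and DNA synthesis, 1 passed the test, Pcna, and the median log2 fold change was -0.0072. Pcna encodes the sliding clamp that holds DNA polymerases on their template (NCBI gene 18538, chromosome 2) and was the most abundant member of all. Pcna was at 358, 356, 348 and 344 FPKM in replicates 1 to 4 of TAM-WT and at 335, 267, 293 and 295 FPKM in replicates 1 to 4 of TAM-KO. The wild-type libraries lay close together, and every knockout library was below them, TAM-KO replicate 1 by the least. The means were 352 ± 6.85 FPKM in TAM-WT and 297 ± 28.2 FPKM in TAM-KO (SD, n = 4 each), and the log2 fold change was -0.35 (SE 0.08), with an adjusted p of 0.0338 by edgeR's quasi-likelihood test. In 3 of the 8 tests that left out 1 library Pcna passed. It did not pass without TAM-WT replicate 1, 3 or 4 (log2 fold change -0.35, -0.32 and -0.34; adjusted p of 0.0504, 0.103 and 0.0745 in edgeR's quasi-likelihood test) or without TAM-KO replicate 2 or 3 (-0.29 and -0.33; adjusted p of 0.107 and 0.105 in edgeR's quasi-likelihood test). Scaling to total reads gave -0.26 with an adjusted p of 0.0548 in edgeR's test, and limma on log2(FPKM + 1) gave -0.25 with an adjusted p of 0.0603. With the replicate number as a block, edgeR's test gave -0.35 with an adjusted p of 0.0521. The processed pseudogenes Pcna-ps1 and Pcna-ps2 are annotated on chromosomes X and 19 and are not listed in the tables, which makes the level of Pcna uncertain to the extent that reads were shared.

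The remaining 11 replication genes had log2 fold changes from -0.10 (Mcm3) to 0.16 (Cdc6), and none passed. Cdc6, which loads the MCM helicase onto origins, was at 5.78, 6.84, 3.96 and 4.73 FPKM in replicates 1 to 4 of TAM-WT and at 7.31, 6.31, 6.13 and 5.86 FPKM in replicates 1 to 4 of TAM-KO. Its groups overlapped, with TAM-WT replicate 2 above all but 1 knockout library (log2 fold change 0.16, SE 0.13). The helicase subunits Mcm2 to Mcm7 had mean levels between 30.7 FPKM (Mcm4) and 74.4 FPKM (Mcm6), and log2 fold changes between -0.10 (Mcm3) and 0.064 (Mcm2). All 6 subunits had every knockout library inside the wild-type range. Rrm1 and Rrm2, the ribonucleotide reductase subunits, also lay inside it, with log2 fold changes of -0.011 and -0.048, and Tyms, thymidylate synthase, had overlapping groups at 0.14 (SE 0.09).

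Of the 17 genes of G2 phase and mitosis, 1 passed the test, Cenpa, and the median log2 fold change was 0.014. Cenpa encodes the histone H3 variant that marks centromeres (NCBI gene 12615, chromosome 5). Cenpa was at 48.9, 53.9, 40.1 and 45.0 FPKM in replicates 1 to 4 of TAM-WT and at 39.2, 40.1 and 33.0 FPKM in replicates 2 to 4 of TAM-KO. The groups did not overlap, but TAM-WT replicate 3 and TAM-KO replicate 3 almost met, at 40.13 and 40.11 FPKM. The means were 47.0 ± 5.85 FPKM (SD, n = 4) and 37.4 ± 3.86 FPKM (SD, n = 3), and the log2 fold change was -0.34 (SE 0.07), with an adjusted p of 0.0324 by edgeR's quasi-likelihood test. Of the 7 libraries of its test left out in turn, Cenpa passed only without TAM-WT replicate 2. Without TAM-WT replicates 1, 3 and 4 in turn its adjusted p in edgeR's quasi-likelihood test was 0.0527, 0.0650 and 0.0632, and without TAM-KO replicates 2, 3 and 4 it was 0.117, 0.102 and 0.0629, with log2 fold changes from -0.37 to -0.30. The largest adjusted p over the alternatives was 0.169, with edgeR's test on libraries scaled to total reads (log2 fold change -0.23), and limma on log2(FPKM + 1) gave 0.0963. With the replicate number as a block, edgeR's test gave a log2 fold change of -0.33 with an adjusted p of 0.0650.

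Mki67, encoding the proliferation marker Ki-67, was at 44.2, 36.2, 33.9 and 34.6 FPKM in replicates 1 to 4 of TAM-WT and at 50, 46.4 and 39.5 FPKM in replicates 2 to 4 of TAM-KO. TAM-WT replicate 1 lay among the knockout libraries, and the other 3 wild-type libraries lay below them. The log2 fold change was 0.17 (SE 0.10), with an adjusted p of 0.298 by edgeR's quasi-likelihood test, and did not pass in any of the 17 alternatives. Top2a, encoding the topoisomerase that untangles replicated chromosomes, was at 49.4, 52.8, 35.5 and 39.9 FPKM in TAM-WT and at 44.3, 62.3, 56.0 and 45.5 FPKM in replicates 1 to 4 of TAM-KO. The groups overlapped, TAM-WT replicates 1 and 2 lying among the knockout libraries, and the log2 fold change was 0.12 (SE 0.12).

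Cdk1, the kinase that drives entry into mitosis, was at 17.2, 21.3, 13.0 and 13.3 FPKM in replicates 1 to 4 of TAM-WT and at 17.3, 17.04 and 15.5 FPKM in replicates 2 to 4 of TAM-KO. The knockout libraries lay inside the wild-type range, with TAM-WT replicate 2 the highest of all 7. Ube2c, the ubiquitin-conjugating enzyme of the anaphase-promoting complex and the most abundant of these genes, was at 128, 141, 95.8 and 101 FPKM in TAM-WT and at 107, 125, 130.1 and 109.9 FPKM in replicates 1 to 4 of TAM-KO. Its 4 knockout libraries also lay inside the wild-type range. The log2 fold changes were -0.064 (SE 0.14) for Cdk1 and -0.069 (SE 0.10) for Ube2c, and both were above 0 with total-read scaling, with limma and without TAM-WT replicate 2. The highest log2 fold change of the role was 0.20 (SE 0.11) for Bub1b, a spindle checkpoint kinase, with an adjusted p of 0.245 by edgeR's quasi-likelihood test. Bub1b was at 20.3, 19.98, 14.7 and 15.8 FPKM in TAM-WT and at 24.4, 22.7 and 18.6 FPKM in replicates 2 to 4 of TAM-KO, with overlap of the groups. Ccnb1 and Ccnb2, the B-type cyclins that activate Cdk1, had log2 fold changes of -0.073 and -0.039 with overlapping groups, and like Tyms each has an annotated processed pseudogene that the tables do not list. Ccnd1, Ccnd3, Cdk4, Ccne2, Cdk2, Cdc45, Mcm7, Ccna2, Cdc20 and Ube2c overlap an annotated gene on the opposite strand.

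**Figure D2:**
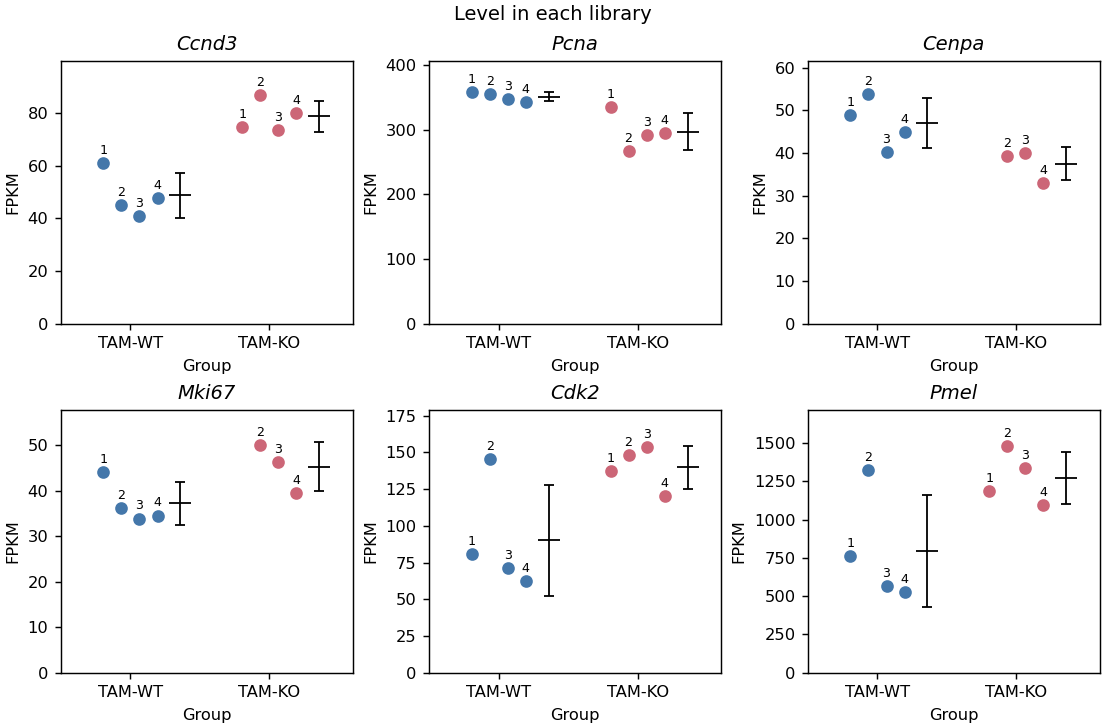
FPKM of Ccnd3, Pcna, Cenpa, Mki67, Cdk2 and Pmel in each library on a linear axis from 0, with the replicate number above each point and the group mean ± SD beside the points. The groups are apart for Ccnd3, Pcna and Cenpa and overlap for Mki67, Cdk2 and Pmel, with TAM-WT replicate 2 among the knockout libraries for Cdk2 and Pmel.

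Among the wild-type libraries most members came in the same order. By FPKM, TAM-WT replicates 1 and 2 both lay above replicates 3 and 4 for 38 of 40 members (95.0%), against 5256 of the 12412 genes tested (42.3%), and by TMM-scaled CPM for 36 (90.0%) against 2958 (23.8%). This order was noticed in the values and carries no test. It held by FPKM for 9 of 11 G1 and S phase regulators, 12 of 12 replication genes and 17 of 17 genes of G2 and mitosis. TAM-WT replicate 2 was the highest wild-type library for 31 members and replicate 1 for 8, while replicate 3 was the lowest for 34. Both exceptions were in G1 and S phase control: Cdkn1a, with replicates 3 and 4 on top, and Ccnd3, with replicate 2 below replicate 4.

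As a level relative to the wild-type mean, the median over the 40 members was 1.10, 1.19, 0.813 and 0.894 in replicates 1 to 4 of TAM-WT and 1.18, 1.11 and 0.984 in replicates 2 to 4 of TAM-KO. Over the 12 members that the table of TAM-KO replicate 1 lists, it was 1.01 in that library, 1.09, 1.2002, 0.805 and 0.898 in the wild-type libraries and 1.2022, 1.13 and 0.984 in the other knockout libraries. TAM-KO replicate 2 was thus as high as TAM-WT replicate 2, and the knockout libraries lay between the wild-type extremes or level with the upper one. For the genes of G2 and mitosis alone the medians were 1.11, 1.19, 0.802 and 0.894 in TAM-WT and 1.21, 1.13 and 0.945 in replicates 2 to 4 of TAM-KO.

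**Figure D3:**
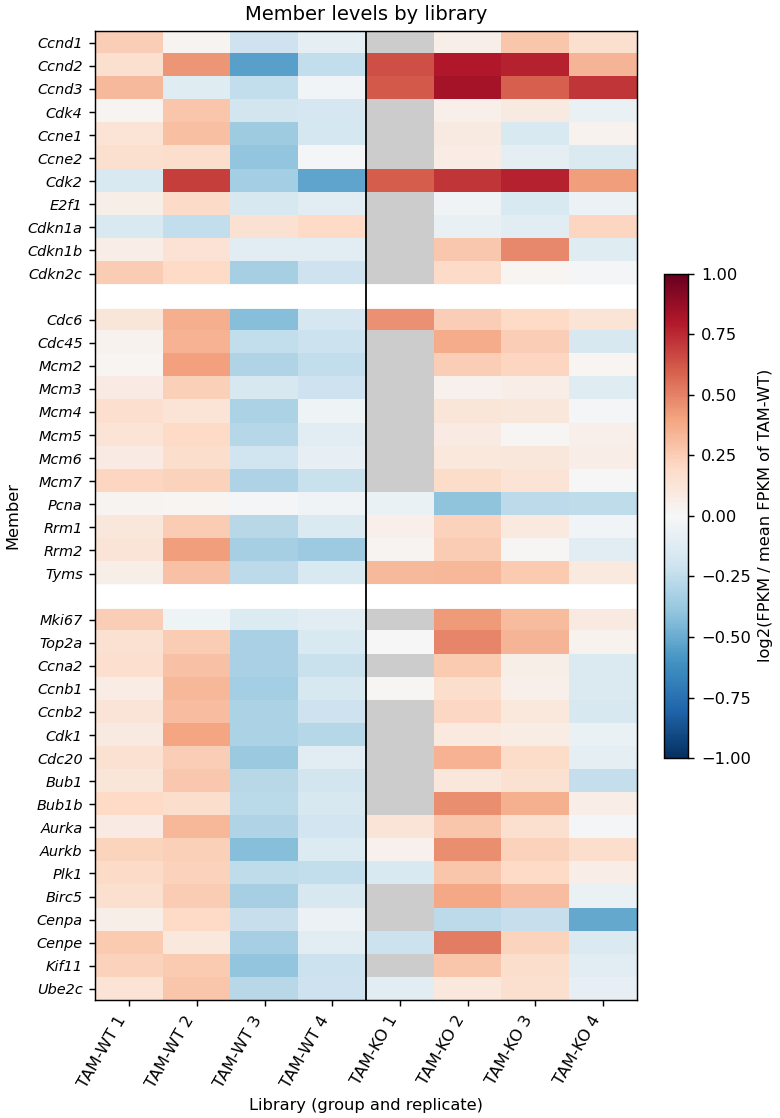
Level of each member in each library as log2 of FPKM over the mean FPKM of TAM-WT, in red where above and blue where below that mean, with grey where TAM-KO replicate 1 has no value. Columns of TAM-WT replicates 1 and 2 are mostly red and those of replicates 3 and 4 mostly blue, the order that 38 of 40 members share.

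Markers of melanoma cells followed a similar order among the wild-type libraries. The 12 of 13 melanoma genes with a value in all 8 libraries summed to 3274, 5409, 2771 and 2685 FPKM in replicates 1 to 4 of TAM-WT and to 5431, 6131, 5691 and 4765 FPKM in replicates 1 to 4 of TAM-KO, with Pmel the most abundant. TAM-WT replicates 1, 3 and 4 were below every knockout library and TAM-WT replicate 2 was among them. Of the 12 tested, 11 had TAM-WT replicates 1 and 2 above 3 and 4, and all 12 were highest in replicate 2 within the group. With edgeR 1 of the 12 was called, Sox10, which rose, while 9 had an unadjusted p under 0.05 on the higher side, DESeq2 called 7 and limma on log2(FPKM + 1) called 3. All 13 were above 0.5 FPKM in at least 1 library, but Cdkn2a only reached 0.44 to 0.93 FPKM, with too few reads to be tested. Of the 13, 2, Gpnmb and Mitf, are also known in macrophages. The part of melanoma cells in the levels of the members was not tested.

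T cell and NK cell markers, which mark other cells that can divide in a tumor, had another order. The 12 T cell genes that are listed (of 15) summed to 21.2, 4.98, 6.27 and 5.81 FPKM in replicates 1 to 4 of TAM-WT and to 57.9, 47.0 and 22.8 FPKM in replicates 2 to 4 of TAM-KO, with Cd3g the most abundant, and 11 of them gave 34.0 FPKM in TAM-KO replicate 1. The wild-type libraries other than replicate 1 held little of these transcripts, and the knockout libraries held the most. With edgeR 1 of the 12 was called higher (Foxp3), 10 had an unadjusted p under 0.05 on the higher side and 1 (Cd28) on the lower, DESeq2 called 6 and limma on log2(FPKM + 1) called 8. The 11 NK cell genes summed to 16.6, 0.87, 2.90 and 3.79 FPKM in TAM-WT and to 50.1, 46.7 and 14.4 FPKM in replicates 2 to 4 of TAM-KO, with Gzmb the most abundant and Ncr1, Klrb1c, Klra4 and Klra8 at or below 0.5 FPKM in every library. The 10 with a value in all 8 libraries gave 19.6 FPKM in TAM-KO replicate 1 and 16.35 FPKM in TAM-WT replicate 1. With edgeR 1 of the 6 NK genes tested was called, Eomes, on the higher side, while 5 were higher at an unadjusted p under 0.05, DESeq2 called 1 and limma on log2(FPKM + 1) called 5, and their median log2 fold change was 2.49. The sort on CD45 and F4/80 selects against T and NK cells, as it does against melanoma cells, and their part in the levels of the members was not tested.

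Genes of the labelled cell type were at high levels, and so were melanoma genes. The 12 macrophage genes summed to 16861, 15485, 17889 and 15402 FPKM in replicates 1 to 4 of TAM-WT and to 13168, 12373 and 15259.7 FPKM in replicates 2 to 4 of TAM-KO, with Lyz2 the most abundant. Adgre1, the gene of the sort marker F4/80, was at 218, 186, 198 and 239 FPKM in TAM-WT and at 199.96, 182 and 199 FPKM in those knockout libraries. The melanoma genes Pmel, Dct and Tyrp1 each stood above Adgre1 in every library where both had a value. The lowest of these values was 412 FPKM, for Tyrp1 in TAM-WT replicate 3. Of the 12 macrophage genes, edgeR called 2 lower in TAM-KO, Mrc1 and Cd14, and none higher. At an unadjusted p under 0.05 edgeR had 5 lower and 1 higher, and in all DESeq2 called 6 and limma on log2(FPKM + 1) called 3. For 0 of the 12 macrophage genes did TAM-WT replicates 1 and 2 both exceed 3 and 4.

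Among genes of the pathway that are not members, 5 of 159 tested (3.14%) were called, all lower in TAM-KO, against 9.81% of all genes tested (5.24% lower). With edgeR 0 were called higher, 3 were higher and 15 lower at an unadjusted p under 0.05 (11.3%, against 30.7% of all genes), and DESeq2 called 1 higher and 9 lower. Their median log2 fold change was -0.043. Of 29 other G1 and S phase control genes tested, edgeR called 2, both lower. At an unadjusted p under 0.05 edgeR had 10 of them (34.5%, against 30.7% of all genes), 2 higher and 8 lower, and DESeq2 called 6. Cdkn1c, encoding the inhibitor p57, was at 1.34, 1.09, 1.99 and 2.57 FPKM in replicates 1 to 4 of TAM-WT and at 0.84, 0.56, 0.40 and 0.74 FPKM in replicates 1 to 4 of TAM-KO, and Btg2, an antiproliferative gene induced by p53, was at 27.1, 47.5, 76.1 and 64.7 FPKM in TAM-WT and at 42.9, 18.8, 18.1 and 27.1 FPKM in TAM-KO. The groups were apart for Cdkn1c, at low levels, and overlapped for Btg2 through TAM-WT replicate 1 and TAM-KO replicate 1. For both genes the value of TAM-KO replicate 1 came from the series-wide table of genes selected for differing between the groups. Log2 fold changes were -1.74 (SE 0.41, adjusted p of 0.0385) for Cdkn1c and -1.46 (SE 0.37, adjusted p of 0.0452) for Btg2 by edgeR's quasi-likelihood test, on the 7 libraries without TAM-KO replicate 1. With that library filled in from the series-wide table, Btg2 was at -1.15 and did not pass (adjusted p of 0.0802 by the same edgeR test). Left out in turn, replicates 3 and 4 of TAM-WT and 2 and 3 of TAM-KO each ended the call on Cdkn1c (adjusted p of 0.104, 0.0741, 0.136 and 0.133 with edgeR) and on Btg2 (0.109, 0.0956, 0.159 and 0.150), and the call on Btg2 was also lost without TAM-KO replicate 4 (0.0525). Leaving out TAM-KO replicate 1, which was not in the test of Btg2, altered only the adjustment over all genes and ended that call too (adjusted p of 0.0554 with edgeR's quasi-likelihood test). The most abundant gene of the list was Btg1, with a mean of 91.8 FPKM and a log2 fold change of -0.73 that did not pass.

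For the other replication genes edgeR called 0 of 49, against 1 higher and 3 lower at an unadjusted p under 0.05, 1 called by DESeq2 and 0 by limma on log2(FPKM + 1). Their median log2 fold change was -0.034, and the most abundant, Tk1, averaged 49.9 FPKM with a log2 fold change of -0.0024. Of 63 other genes of G2 and mitosis, Wee1 alone was called by edgeR, with a median of -0.036 over the list and H2az1 (mean 297 FPKM) the most abundant. Wee1 encodes a kinase that restrains Cdk1 and was at 11.5, 14.2, 15.6 and 13.3 FPKM in replicates 1 to 4 of TAM-WT and at 9.27, 8.31, 10.7 and 10.6 FPKM in replicates 1 to 4 of TAM-KO. All knockout libraries lay below all wild-type libraries (log2 fold change -0.59, SE 0.13, adjusted p of 0.0303 by edgeR's quasi-likelihood test). Wee1 did not pass without replicate 3 or 4 of TAM-WT or replicate 1, 2 or 3 of TAM-KO (adjusted p of 0.0819, 0.0618, 0.0641, 0.101 and 0.0830 with edgeR). The order of the wild-type libraries seen for the members also held for 46 of the 49 other replication genes and 59 of the 63 other genes of G2 and mitosis, but for 13 of the 29 other G1 and S phase control genes.

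Macrophage growth factor receptors and regulators of self-renewal did not share that order, which held for 1 of 18. Of the 18 tested, from a list of 21, edgeR called 2 lower and 0 higher (11.1%, against 9.81% of all genes tested), and DESeq2 called 2. At an unadjusted p under 0.05 edgeR had 0 higher and 2 lower (11.1%, against 30.7% of all genes). The median log2 fold change of the 18 was -0.19. Csf1r and Flt3 of this list are also among the macrophage and dendritic cell markers. Klf4, a transcription factor of monocyte differentiation, was at 29.5, 33.0, 48.3 and 42.2 FPKM in replicates 1 to 4 of TAM-WT and at 24.9, 19.9, 18.7 and 26.4 FPKM in replicates 1 to 4 of TAM-KO. Zfp36l1, an RNA-binding protein that destabilizes transcripts, was at 79.9, 77.8, 101 and 79.4 FPKM in TAM-WT and at 48.3, 61.4 and 63.8 FPKM in replicates 2 to 4 of TAM-KO. The groups did not overlap for either gene, with Klf4 in TAM-KO replicate 1 taken from the series-wide table of genes selected for differing. Their log2 fold changes were -0.93 (SE 0.23) and -0.66 (SE 0.16), with adjusted p of 0.0433 and 0.0436 by edgeR's quasi-likelihood test on the 7 libraries without TAM-KO replicate 1. Csf1r, the receptor for the macrophage growth factor Csf1, was the most abundant with a mean of 245 FPKM and had a log2 fold change of -0.19 that did not pass. Without replicate 3 or 4 of TAM-WT or replicate 2 or 3 of TAM-KO neither gene passed in edgeR's quasi-likelihood test, with adjusted p of 0.0998, 0.0926, 0.153 and 0.144 for Klf4 and 0.0904, 0.0822, 0.144 and 0.122 for Zfp36l1. Zfp36l1 was lost without TAM-WT replicate 1 as well (adjusted p of 0.0522 with edgeR). Through the adjustment alone, both calls were also lost without TAM-KO replicate 1, which was not in their tests (adjusted p of 0.0543 and 0.0545 with edgeR's quasi-likelihood test).

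Promoters of the members were searched for short motifs that the choice of members did not use, and their shares differed among the roles without a test of the difference. RefSeq's promoter table for GRCm38.p6 holds windows of 300 bases, 250 before and 50 after the gene's start, for 34 of the 40 members (38 windows, 4 members having 2). Ccnd1, Ccnd2, Ccne2, Mcm4, Ccna2 and Aurkb have no entry. Searched on both strands were the cell cycle homology region TTTGAA, the CCAAT box CCAAT, and the E2F motif as TTTCCCGC or TTTGGCGC. Of the windows of genes of G2 and mitosis, 11 of 15 (73.3%) held TTTGAA and 14 of 15 (93.3%) held CCAAT, beside 17.9% and 37.4% of all 32851 windows, and 11 of 15 held both, beside 6.95%. Of the replication windows, 5 of 12 (41.7%) held an E2F motif, beside 1.56% of all windows, 10 of 12 (83.3%) held CCAAT and 2 of 12 (16.7%) TTTGAA. Of the 11 windows of G1 and S phase regulators, 4 (36.4%) held CCAAT, 1 (9.09%) an E2F motif and 0 TTTGAA, and of the 15 windows of G2 and mitosis 0 held an E2F motif. No match of 1 motif overlapped a match of another in the members' windows.

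The windows of Pcna and Cenpa are printed because these members fell in TAM-KO, and those of Cdk1 and Mcm6 because they show each role's motifs at members that did not pass. Capitals mark a match on either strand, so that ATTGG is a CCAAT box read from the other strand. The windows are chr2:132253131-132253430 on the minus strand for Pcna, chr5:30666636-30666935 on the plus strand for Cenpa, chr10:69352863-69353162 on the minus strand for Cdk1 and chr1:128359656-128359955 on the minus strand for Mcm6, each printed 5′ to 3′ along its gene's strand. Pcna had 1 CCAAT match, Cenpa 2 CCAAT and 1 TTTGAA, Cdk1 3 CCAAT and 2 TTTGAA, and Mcm6 2 CCAAT and 2 E2F matches. A match describes the letters and does not show a bound site, and Cenpa, which fell, and Cdk1, which did not pass, hold the same kinds of match.
Pcna promoter: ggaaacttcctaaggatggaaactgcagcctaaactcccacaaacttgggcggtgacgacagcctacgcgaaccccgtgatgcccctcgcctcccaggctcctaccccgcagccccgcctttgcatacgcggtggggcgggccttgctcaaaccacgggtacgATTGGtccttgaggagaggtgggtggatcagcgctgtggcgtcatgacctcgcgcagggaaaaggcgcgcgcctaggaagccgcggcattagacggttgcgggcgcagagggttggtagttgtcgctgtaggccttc
Cenpa promoter: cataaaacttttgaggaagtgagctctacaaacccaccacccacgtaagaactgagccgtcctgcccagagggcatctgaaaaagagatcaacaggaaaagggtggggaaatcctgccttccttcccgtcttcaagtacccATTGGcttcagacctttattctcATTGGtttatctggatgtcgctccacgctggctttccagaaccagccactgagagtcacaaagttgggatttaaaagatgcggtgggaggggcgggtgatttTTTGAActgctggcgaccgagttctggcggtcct
Cdk1 promoter: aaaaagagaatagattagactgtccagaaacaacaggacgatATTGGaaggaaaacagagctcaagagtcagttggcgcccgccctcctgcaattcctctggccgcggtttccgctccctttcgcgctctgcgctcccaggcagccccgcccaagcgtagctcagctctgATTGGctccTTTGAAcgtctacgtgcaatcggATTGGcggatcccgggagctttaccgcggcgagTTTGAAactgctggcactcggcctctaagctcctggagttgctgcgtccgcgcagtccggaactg
Mcm6 promoter: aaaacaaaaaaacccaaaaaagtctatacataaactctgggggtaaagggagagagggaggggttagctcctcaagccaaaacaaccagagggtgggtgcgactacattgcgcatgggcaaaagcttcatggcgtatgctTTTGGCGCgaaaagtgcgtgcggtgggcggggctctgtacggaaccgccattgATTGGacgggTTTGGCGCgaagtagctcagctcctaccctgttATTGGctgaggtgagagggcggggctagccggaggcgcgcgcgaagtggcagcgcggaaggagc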

How the data were processed

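Per the submitters' processing notes, reads were processed with HISAT2 2.0.4, Bowtie2 2.2.5 and RSEM 1.2.12 on mouse build GRCm38.p6. The authors deposited 1 table per library with RSEM expected counts per gene and the FPKM derived from them, and a series-wide table with the same units. Fold changes, p-values and q-values in that table hold the authors' own comparison and were not used. RSEM shares reads among genes by estimation, so genes with near-identical copies are less certain.

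Expected counts were rounded to whole numbers, filtered with filterByExpr, scaled by TMM and tested with glmQLFit and glmQLFTest (edgeR 4.0.16, R 4.3.3), TAM-KO against TAM-WT, 2-sided. Genes valued in all 8 library tables (9396 tested) were fitted on 8 libraries and those missing in TAM-KO replicate 1 (3016) on the other 7. p was adjusted by the Benjamini-Hochberg method over both. 1 broken line was not used. FPKM levels, overlaps by FPKM and marker sums took TAM-KO replicate 1 from its own table, else from the series-wide table where that gave a value. SE is the absolute log2 fold change over the square root of F.

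Alternatives were DESeq2 1.42.0 size factors, total-read scaling, DESeq2's Wald test, limma 3.58.1 on log2 FPKM with a pseudocount of 1 or 0.1, omission of the filter, a minimum of 10 counts in all libraries, the replicate block, TAM-KO replicate 1 filled from the series-wide table, and leaving out each library. The main edgeR fit was also run on simulated counts. Those counts had the same spread between replicates for every gene and no differences in cell mix. The run therefore does not measure how often the fit errs in these data. No pair of replicates of a group matched within counting noise (chi-square per degree of freedom 6.39 to 31.1), so each library was counted as 1 sample.

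Named with values in every library were each member called, the most abundant member per role, Mki67, Top2a, Cdk1, Pcna and the inhibitors, with the log2 fold change of members at the ends of the range, and of other lists the called genes with the largest changes and the most abundant gene. Members and lists were chosen with earlier results of these data known. Promoters are from RefSeq (GRCm38.p6) and gene overlaps from GENCODE M21. Melanoma, T cell, NK cell, macrophage, monocyte, dendritic cell, neutrophil, B cell, fibroblast, endothelial and erythroid marker lists were summed by FPKM, and not every gene of them is reported here.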

Additional observations from a re-analysis of the deposited data

Results flagged for a closer look

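In 10 of 133 groups of 4 values compared, 1 library lay far from the other 3 by Dixon's ratio, the gap to the nearest value over the whole range, exceeding its 95% critical value. Chance gives about 1 in 20 groups, or about 6.65 here, and none of the 10 was a level of a member. Zfp36l1 was at 101 FPKM in TAM-WT replicate 3, the nearest other wild-type library being at 79.85 FPKM (ratio 0.913). The other 9 belong to lists of other cell types, which share libraries and partly genes, and 5 of them were in TAM-WT replicate 1. In that library summed T cell markers were at 21.2 FPKM, against 6.27 FPKM in the nearest library (ratio 0.920), and Cd3g at 4.58 against 0.23 FPKM (0.982). Summed B cell markers were at 7.29 against 4.80 FPKM (0.874). Gzmb was at 6.55 against 0.47 FPKM (0.962) and Thy1 at 4.67 against 1.06 FPKM (0.860). For marker genes valued in every library, TAM-KO replicate 1 had the highest neutrophil and erythroid sums of the knockout group. Its summed neutrophil markers were at 198 against 56.3 FPKM in the nearest knockout library (0.952) and summed erythroid markers at 87.1 against 27.8 FPKM (0.912), and S100a8 was at 73.5 against 15.8 FPKM (0.896). On the same basis summed dendritic cell markers were lowest among the knockout libraries in replicate 4, at 7.47 against 11.96 FPKM (0.838).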

How the results depend on the processing

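The log2 fold changes of Ccnd3, Pcna, Cenpa, Mki67, Top2a, E2f1, Cdc6, Bub1b, Ccnd2, Cdk2 and the 5 called pathway genes kept their sign in all 17 alternatives. For genes tested on 7 libraries, leaving out TAM-KO replicate 1 alters only the adjustment of p, which by itself ended the calls of Btg2, Klf4 and Zfp36l1. Members called higher numbered 1, or 2 with DESeq2, and 0 to 3 when 1 library was left out (3 without TAM-WT replicate 2, 0 without TAM-WT replicate 3 or 4 or TAM-KO replicate 2 or 3). Members called lower numbered 2, but 0 with total-read scaling and with limma at either pseudocount, and 0 to 2 with 1 library left out. Other pathway genes called higher numbered 0, or 1 with total-read scaling, DESeq2 and limma on log2(FPKM + 0.1), and 0 to 2 without 1 library. Those called lower numbered 5, or 9 with DESeq2, 4 with TAM-KO replicate 1 filled in, and 0 to 9 without 1 library. Signs reversed with total-read scaling, limma on log2(FPKM + 1) and limma on log2(FPKM + 0.1), in this order, for Cdk4 (0.0361, 0.0377 and 0.038), Ube2c (0.0078, 0.0363 and 0.0367), Cdk1 (0.0362, 0.0576 and 0.0623), Cdkn1a (0.0259, 0.0242 and 0.0244) and Cdkn2c (0.0785, 0.0822 and 0.0864), none of which passed. With 1 library left out, log2 fold changes ran from -0.11 to 0.0126 (Cdk4), -0.12 to 0.015 (Ube2c), -0.13 to 0.0687 (Cdk1), -0.0151 to 0.25 (Cdkn1b) and -0.10 to 0.0523 (Cdkn2c). The median of all genes moved to 0.11 with limma on log2(FPKM + 0.1), and the share of higher calls from 46.6% to 64.4% with total-read scaling, 69.2% with limma on log2(FPKM + 1) and 68.4% on log2(FPKM + 0.1). Over all genes 1218 were called, 2253 with DESeq2, and 2755, 151, 416, 682, 77 and 77 without TAM-WT replicate 2, 3 or 4 or TAM-KO replicate 1, 2 or 3. The cause was not tested.

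The sample labels do not say whether mice with the same replicate number were paired, and the main test did not pair them. Deviations of same-numbered libraries from their group means correlated at -0.38, 0.038, -0.26 and 0.28 for numbers 1 to 4 over 9368 genes, and not every library correlated best with its own number. With the replicate number as a block, 0 members were called lower, 8 other pathway genes were called lower, 1080 genes were called in all, and the log2 fold change of Cdkn2c was 0.0597.

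With 4 mice a group, and 3 knockout libraries for most members, small differences could not be resolved. The table of TAM-KO replicate 1 and the selected series-wide table limit which members have a value in all 4 knockout libraries.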

Other observations

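Other marker lists were measured in the same libraries, and their part in the levels of the cell cycle genes was not tested. Monocyte genes (9, S100a4 the most abundant) summed to 908, 636, 1076 and 1184 FPKM in TAM-WT replicates 1 to 4 and to 1105, 933 and 1051 FPKM in TAM-KO replicates 2 to 4, and edgeR called 3 higher and 1 lower. The 7 of 9 neutrophil genes with a value in all 8 libraries summed to 32.7, 21.8, 29.1 and 29.2 FPKM in TAM-WT and to 198, 49.7, 49.1 and 56.3 FPKM in TAM-KO replicates 1 to 4, with Ly6g, Camp and Ngp at or below 0.5 FPKM throughout. TAM-KO replicate 1 stood far above all other libraries, and S100a8, picked out after its values were seen, was at 73.5 FPKM in it, against 10.6, 9.13 and 15.8 FPKM in the other knockout libraries. Csf3r was the most abundant of the list, and edgeR called 1 of 5 tested, on the higher side.

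Over the 7 libraries other than TAM-KO replicate 1, dendritic cell genes (Ccr7 and Batf3 the most abundant) summed to 12.1 to 23.6 FPKM with 1 called higher by edgeR, and B cell genes (Cd79b) to 4.44 to 11.5 FPKM with Ms4a1 and Pax5 at or below 0.5 FPKM. Fibroblast genes (Thy1) summed to 2.88 to 20.7 FPKM with Lum, Pdgfra and Fap at or below 0.5 FPKM, and endothelial genes (Eng) to 32.4 to 83.5 FPKM with Tek, Tie1 and Cldn5 at or below it. Most of the endothelial sum was Eng, at 24.1 to 66.8 FPKM, while Cdh5 of the same list was at 0.28 to 0.51 FPKM. Erythroid genes (Hba-a2) summed to 7.68 to 118 FPKM. By edgeR 1 of 6 fibroblast genes tested (Thy1, which T cells also express) and 1 of 6 endothelial genes (Eng) were higher. Log2 fold changes of the fibroblast genes ran from -2.05 (Dcn, not passing) to 2.67 (Thy1). With edgeR 0 of 2 B cell and 0 of 3 erythroid genes tested were called, with 1 and 0 at an unadjusted p under 0.05 and 0 called by DESeq2.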
